A study of Homo sapiens with 6 samples.

Results

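HAVCR1 (hepatitis A virus cellular receptor, also called TIM-1 or KIM-1) and 5 other genes of chromosome band 5q33 were examined in J82, a bladder cancer line of human origin that is long established in culture. The group held the 3 genes of the human TIM family, HAVCR1, HAVCR2 and TIMD4, and 3 neighbouring genes, MED7, CYFIP2 and SGCD, 6 of the 57820 genes in the table. HAVCR1 was chosen by its lower counts in the knockout libraries, the other TIM genes by family and the rest by position, with the knockout-against-control values of all 6 already known. These values are therefore given as a description, with no p-value for any member. The study compared 3 control libraries, from J82 cells that carried a vector, with 3 FOXC1 knockout (KO) libraries, from J82 cells that had received a lentiviral CRISPR/Cas9 vector (lentiCRISPR v2) against FOXC1 and had been selected with puromycin. The methods mention KO clones checked by western blot. No label says whether the 3 libraries of a group came from separate cultures or clones, so p-values measure only the spread between these libraries, which may be technical.

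TIM proteins are membrane receptors with an immunoglobulin-like domain on a mucin stalk, and they bind phosphatidylserine, a lipid that dying cells expose on their surface. HAVCR1 is best known from the kidney, where injured proximal tubule cells raise it, use it to engulf dead neighbours and shed its outer part into urine. HAVCR2 (TIM-3) is an inhibitory receptor of T cells and myeloid cells, and TIMD4 (TIM-4) is a receptor of macrophages. MED7 is a subunit of Mediator, the complex that links transcription factors to RNA polymerase II. CYFIP2 is a subunit of the WAVE complex, which drives branched actin assembly downstream of RAC1. SGCD encodes delta-sarcoglycan, part of the dystrophin-glycoprotein complex of muscle.

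The library totals ranged from 18408134 to 25350908 counts. FOXC1 transcript itself was not lower in KO, with 16.9 to 19.3 CPM (read counts scaled to library depth) in control and 21.1 to 24.1 CPM in KO libraries. Its log2FC (the log2 of the fold change of KO over control) was 0.30 (edgeR adjusted p 0.0127), under the fold threshold, so the transcript level does not check the labels. At the protein level, the paper reports a western blot with less FOXC1 in J82 KO cells than in control cells. The cell type was checked against urothelial markers. The simple-epithelium keratin genes KRT7, KRT8, KRT18 and KRT19 and the urothelial factors GATA3 and PPARG were expressed, whereas UPK1A, UPK1B, UPK3A, KRT5, KRT14, KRT20 and CDH1 each had at most 3 counts in any library. UPK2 and TP63 had at most 9 counts in any library, UPK3B 10 to 20 and EPCAM 20 to 53. Over all 17 urothelial markers, summed CPM ranged from 3179 to 4001 in control and from 2488 to 2765 in KO libraries. Most of this sum came from KRT8 (means of 1658 CPM in control and 1091 in KO), KRT7 (992 and 948) and KRT18 (544 and 383). It therefore says little about the other markers.

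The sequence before the transcription start is shown for HAVCR1 and TIMD4, as TIM genes, and for the first of 2 listed starts of CYFIP2, as a neighbour, to set their base composition side by side. The sequences were taken from RefSeq and placed on GRCh37 by an exact match, and bases inside an exon of the gene were left out. HAVCR2 is missing from the table of promoters used. Capitals mark TATATA, a variant of the TATA box at which the basal transcription machinery assembles. Only this exact spelling is marked, so other TATA-like stretches, such as tataag near the end of the TIMD4 sequence, stay in small letters.
HAVCR1, chr5:156486131-156486377, minus strand: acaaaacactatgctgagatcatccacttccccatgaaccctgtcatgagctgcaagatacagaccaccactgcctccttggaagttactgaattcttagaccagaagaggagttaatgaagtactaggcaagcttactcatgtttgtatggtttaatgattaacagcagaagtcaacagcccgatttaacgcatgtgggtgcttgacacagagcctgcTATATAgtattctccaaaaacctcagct
TIMD4, chr5:156390238-156390487, minus strand: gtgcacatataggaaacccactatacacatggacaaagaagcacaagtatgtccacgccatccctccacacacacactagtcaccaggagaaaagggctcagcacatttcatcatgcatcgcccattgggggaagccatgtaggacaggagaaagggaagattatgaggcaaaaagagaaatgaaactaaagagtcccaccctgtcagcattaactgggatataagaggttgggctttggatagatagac
CYFIP2, chr5:156692883-156693088, plus strand: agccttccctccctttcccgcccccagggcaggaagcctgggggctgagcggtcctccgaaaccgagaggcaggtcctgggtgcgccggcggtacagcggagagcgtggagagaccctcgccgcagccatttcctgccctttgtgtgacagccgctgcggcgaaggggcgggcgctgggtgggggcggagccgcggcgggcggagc

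The HAVCR1 window lies inside an intron of 1 longer HAVCR1 transcript (HAVCR1-205), and the TIMD4 window in no TIMD4 transcript. Over the full 250 bases before the start, HAVCR1 had a GC content of 43.2% with 2 CpG dinucleotides, TIMD4 46.4% with 2, and the first start of CYFIP2 76.4% with 30, where the median of 34788 RefSeq promoters was 58% with 11. The second CYFIP2 start, inside longer CYFIP2 transcripts and not printed, had 52.4% with 2, so the high GC content applies to the first start and not to the gene as a whole. In HAVCR1 the TATATA began 31 bases before the start. On either strand TATATA occurred in 3.76% of the 34788 windows. Forkhead factors such as FOXC1 bind variants of a short core motif. Searched on both strands were TGTTTAC as the first spelling, TGTTTAT as the second spelling, TATTTAC as the third spelling and TATTTAT as the fourth spelling. None of the windows of the 5 members in the promoter table held any of the 4 spellings, and 12.4% of all windows held at least 1. This says only that these letters are not in these stretches. Close spellings, such as tgtttgt in the HAVCR1 sequence, were not searched.

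HAVCR1 (ENSG00000113249.8, chromosome 5, 156453753 to 156496407, minus strand, GRCh37) was the member with the largest difference. Its control libraries had 663, 717 and 791 counts and its KO libraries 38, 36 and 24 (replicates 1 to 3). Scaled to depth, these were 29.5, 29.4 and 31.1 CPM in control and 2.06, 1.43 and 1.02 CPM in KO. The control values lay within 1.06-fold of each other, the KO values spanned 2.03-fold, and the lowest control value was 14.2 times the highest KO value. The means were 29.998 ± 0.948 CPM in control and 1.504 ± 0.527 CPM in KO (± SD of 3 libraries), which gave a log2FC of -4.35 (SE 0.14) or 20.4-fold. It was the 1 gene called lower with a log2FC under -4 among the 15647 tested (0.00639%). In bulk RNA, fewer cells with the transcript and less transcript per cell cannot be told apart. HAVCR1 was not at 0 in KO, where the individual libraries kept 6.88%, 4.76% and 3.40% of the control mean. All 3 KO libraries lay above the floor of 3 counts, which corresponds to at most 0.163 CPM.

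HAVCR2 (ENSG00000135077.4, chromosome 5, 156512433 to 156569880, minus strand) was close to the limit of detection. It had 16, 13 and 12 counts in control and 8, 4 and 0 in KO libraries, or 0.713, 0.532 and 0.472 CPM against 0.435, 0.159 and 0 CPM. The groups did not overlap, but the highest KO value reached 0.435 CPM beside a lowest control value of 0.472 CPM. The log2FC was -1.63 (SE 0.52), and HAVCR2 passed the filter on low counts through its control libraries. From the summed counts, 41 and 12, the KO level was 0.315 of control (95% exact interval 0.151 to 0.611, counting error only). Without KO replicate 3, the library with no read, the log2FC was -1.03, and without KO replicate 1 it was -2.72. In the annotation used here the HAVCR2 gene shares 5446 bases with the more abundant MED7 on the same strand, and how reads in shared stretches were assigned was not tested.

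TIMD4 (ENSG00000145850.4, chromosome 5, 156346303 to 156390237, minus strand) had 1, 1 and 2 counts in control libraries and 0 in each KO library. No library passed 3 counts, so TIMD4 did not enter the fit and no fold is given. HAVCR2 and TIMD4 are genes of immune cells, so immune markers were read beside them. Of 20 immune markers 7 had no count in any library, among them CD3D, CD3E, CD3G, CD2, MS4A1 and CD163. Including these 7, 13 had fewer than 10 counts over the 6 libraries. The most counts over the 6 libraries were those of ITGAX (615), CD14 (614) and CSF1R (486). PTPRC, the general leukocyte marker, had 3 to 4 counts in control and 6 to 9 in KO libraries. The summed CPM of the list ranged from 10.7 to 11.4 in control and from 17.5 to 18.6 in KO. Within this sum CSF1R, the receptor of macrophage colony-stimulating factor, went from 1.13 ± 0.159 to 5.98 ± 0.380 CPM. The part of immune transcripts in the HAVCR2 values was not tested.

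CYFIP2 (ENSG00000055163.14, chromosome 5, 156693089 to 156822603, plus strand) was also lower in KO. It had 80, 81 and 68 counts in control and 19, 44 and 43 in KO libraries, that is 3.57, 3.32 and 2.67 CPM against 1.03, 1.74 and 1.83 CPM. The groups did not overlap, and KO replicate 1, the shallowest library, was the lowest. The means were 3.18 ± 0.461 and 1.53 ± 0.437 CPM, and the log2FC was -1.01 (SE 0.20). Without KO replicate 1 the log2FC was -0.83. The 3' end of CYFIP2 overlaps the more abundant ADAM19 on the other strand by 62 bases, and reads there cannot be told apart if strand was not used in counting.

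MED7 (ENSG00000155868.7, chromosome 5, 156564435 to 156586030, minus strand), which lies between HAVCR2 and CYFIP2, was slightly higher in KO. It had 351, 459 and 407 counts in control and 354, 500 and 478 in KO libraries, or 15.6 to 18.8 CPM against 19.2 to 20.3 CPM. All KO values lay above the control values, with a log2FC of 0.24 (SE 0.094), or 1.18-fold, which is under the 1.3-fold threshold. SGCD (ENSG00000170624.9, chromosome 5, 155297354 to 156194799, plus strand), the farthest member at 1199 kb from HAVCR1, had 0 counts in all 6 libraries. Over the 6 libraries together 3 counts would be 0.0215 CPM, the upper limit that a count of 0 allows.

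**Figure D1:**
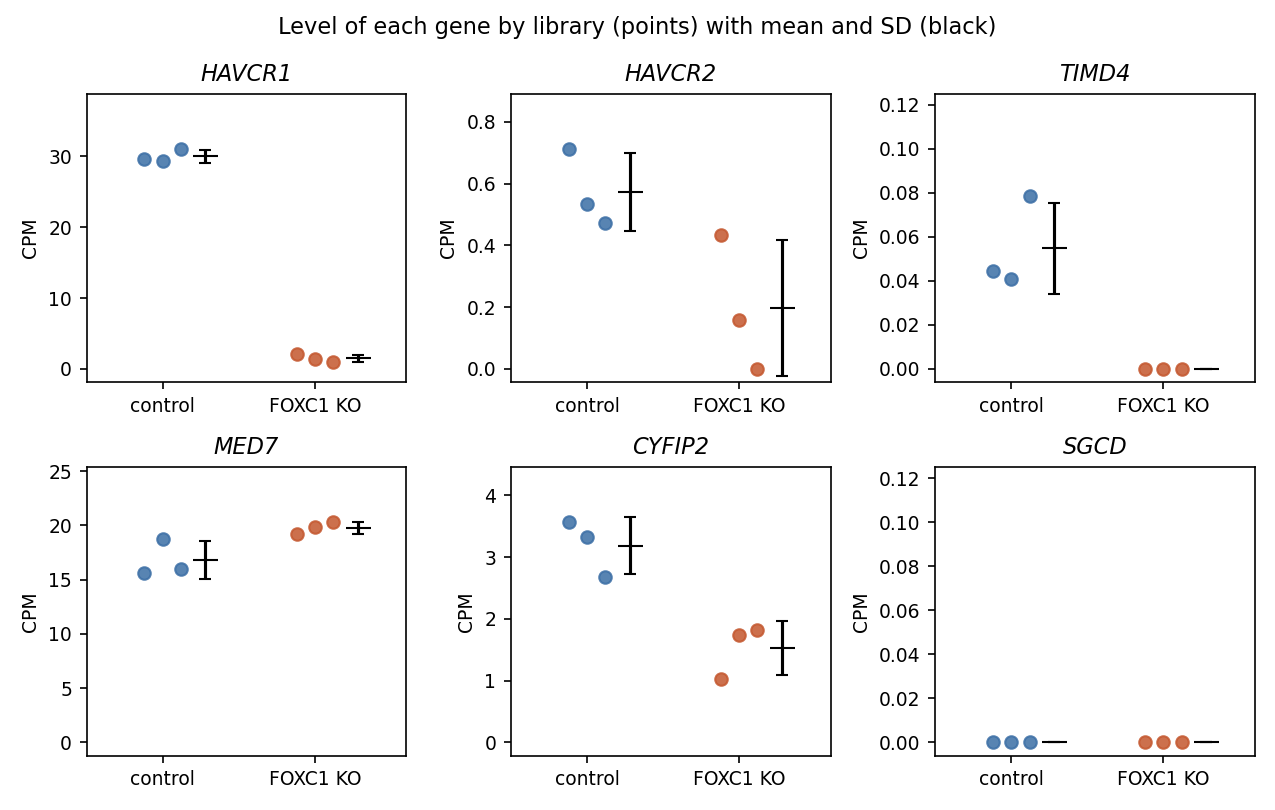
Level of the 6 genes in CPM (vertical axes, linear and separate for each gene) in 3 control (blue) and 3 FOXC1 KO (orange) libraries, with the mean and SD in black. HAVCR1 goes from 29.4 to 31.1 CPM in control to at most 2.06 CPM in KO, CYFIP2 and HAVCR2 are lower without overlap, MED7 is slightly higher, and SGCD is at 0 throughout.

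Of the 6 members, 4 passed the filter on low counts and entered the fit over all genes, where HAVCR1, HAVCR2 and CYFIP2 met the criteria for a lower call (8.39% of all tested genes did, and 7.57% met those for a higher one). A call needed a change of more than 1.3-fold with an adjusted p below 0.05. HAVCR1 and CYFIP2 met these criteria in all 12 alternatives. HAVCR2 met them in 7 of the 11 alternatives that included it, and did not with DESeq2 (log2FC -1.60) or without control replicate 1 (-1.46), KO replicate 2 (-1.54) or KO replicate 3 (-1.03). All 3 were also lower with a log2FC under -1, as were 2.05% of all tested genes. The groups did not overlap for any of the 4, where this held for 41.3% of all tested genes (KO lower in 20.8% and higher in 20.5%). Since the contrast was known when the members were chosen, nothing is read from these counts.

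Per kb of exon, levels were set side by side between genes. The exon lengths came from GENCODE version 44, whereas the counts were assigned to version 19 genes. How far this mismatch moves the order and ratios below was not tested, and the SDs do not cover it. In control libraries HAVCR1 (6.18 ± 0.195 RPKM, ± SD of 3 libraries) and MED7 (6.06 ± 0.622 RPKM) had overlapping values and did not differ beyond their spread. They were followed, without overlap between neighbours, by CYFIP2 (0.302 ± 0.0436 RPKM), HAVCR2 (0.108 ± 0.0237 RPKM) and TIMD4 (0.0361 ± 0.0137 RPKM), the last from 4 reads in all. In KO libraries MED7 (7.13 ± 0.193 RPKM) was 23.0 times HAVCR1 (0.310 ± 0.108 RPKM). HAVCR1 still lay above CYFIP2 (0.145 ± 0.0414 RPKM) in KO, and CYFIP2 above HAVCR2, which ranged from 0 to 0.0818 RPKM. HAVCR1 thus went from a level above 60.2% of the tested genes to one above 11.3% of them.

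To place HAVCR1 among its neighbours, the other genes whose 5' ends lie within 1 Mb of its own were read. The table holds 33 such genes besides the members. Of these, 20 had no count in any library, 5 were tested, and 0 were called by edgeR (0 by DESeq2, and 2 had an unadjusted p under 0.05 in edgeR, ADAM19 and CLINT1). Since 8.39% of all tested genes were called lower and 7.57% higher, 0 calls among 5 genes says little about the window. The median log2FC of these 5 genes was 0.058, beside -0.00084 over all tested genes. ADAM19 (chromosome 5, 156822542 to 157002783), a membrane-bound metalloprotease gene, had 85.02 ± 6.33 CPM in control and 110.2 ± 5.48 CPM in KO, with a log2FC of 0.37 (SE 0.074, edgeR adjusted p 0.000281). Its change of 1.296-fold was marginally short of the threshold, which it passed without control replicate 1 (log2FC 0.42), control replicate 3 (0.38) or KO replicate 3 (0.41).

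The other 4 tested neighbours differed less. CLINT1, which encodes a clathrin adaptor, had a log2FC of 0.16 (adjusted p 0.0878 in edgeR), and THG1L, a transfer RNA guanylyltransferase gene, -0.12 (adjusted p 0.322). LSM11, which acts in histone mRNA processing, had 0.058 (adjusted p 0.681), and NIPAL4, a magnesium transporter gene, -0.080 (adjusted p 0.843). Farther out, 20 non-member genes between 1 and 5 Mb had a median log2FC of 0.095, with 0 called lower and 1 higher, MIR3142HG (named after its value was seen), at 2.15. The lowest log2FC among these 20 was -0.17. Over chromosome 5, 43 of 730 tested non-member genes were called lower (5.89%) and 82 higher (11.2%), with a median of 0.082.

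**Figure D2:**
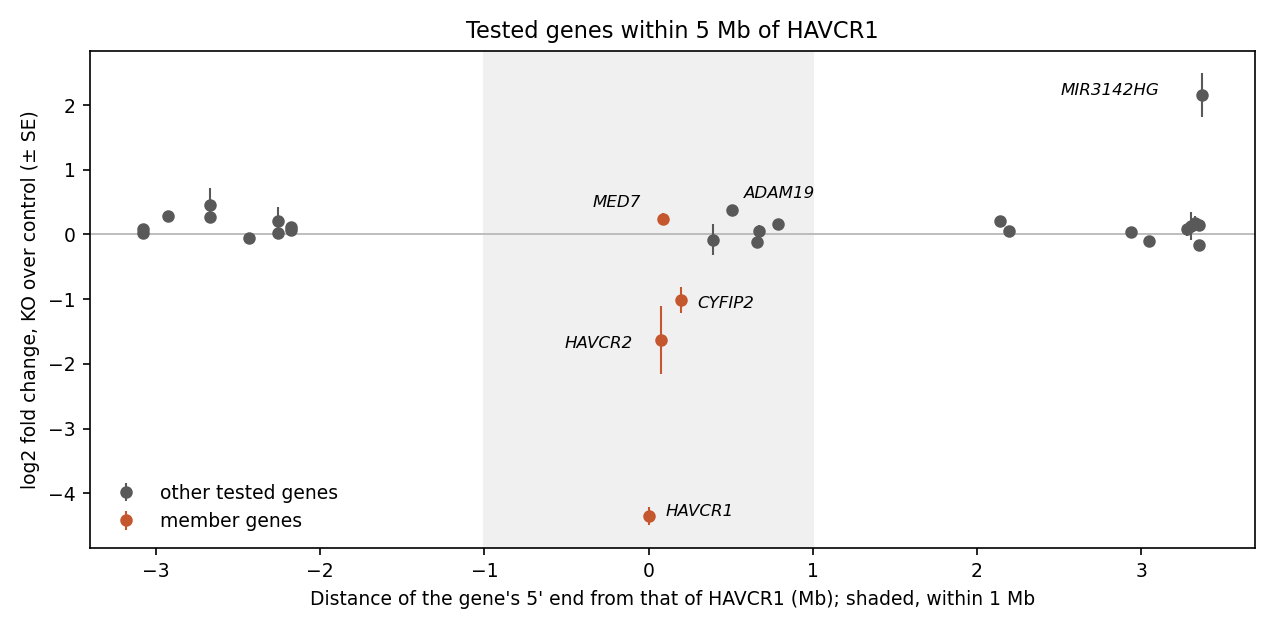
Log2 fold change of KO over control with its SE (vertical axis) for tested genes within 5 Mb of HAVCR1, against the distance of 5' ends in Mb (horizontal axis). Member genes are orange and others grey, and the grey genes within 1 Mb (shaded) stay between -0.12 and 0.37 while HAVCR1 stands at -4.35, HAVCR2 at -1.63 and CYFIP2 at -1.01.

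The genes whose profile over the 6 libraries was nearest to that of HAVCR1 were TSPAN8, A2M, ID1, DERL3 and ID3, by root mean square difference of mean-centred log2(CPM + 0.5). The differences were 0.857, 0.862, 0.949, 0.954 and 0.979 log2 units, so each stood nearly 1 log2 unit away from HAVCR1. This measure was set mostly by the difference between the groups, the contrast by which HAVCR1 was chosen, and not by likeness within a group. Over KO replicates 1 to 3, HAVCR1 went down (2.06, 1.43 and 1.02 CPM) while TSPAN8 went up. TSPAN8, a tetraspanin gene on chromosome 12, had 26.8, 32.2 and 28.5 CPM in control and 4.89, 5.39 and 5.69 CPM in KO libraries, and A2M, a protease inhibitor gene, had log2FC -2.35. The log2FCs of ID1 and ID3, inhibitors of helix-loop-helix factors, were -2.19 and -2.16, and that of DERL3, of endoplasmic reticulum degradation, was -2.16. None of the 5 lies on chromosome 5.

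**Figure D3:**
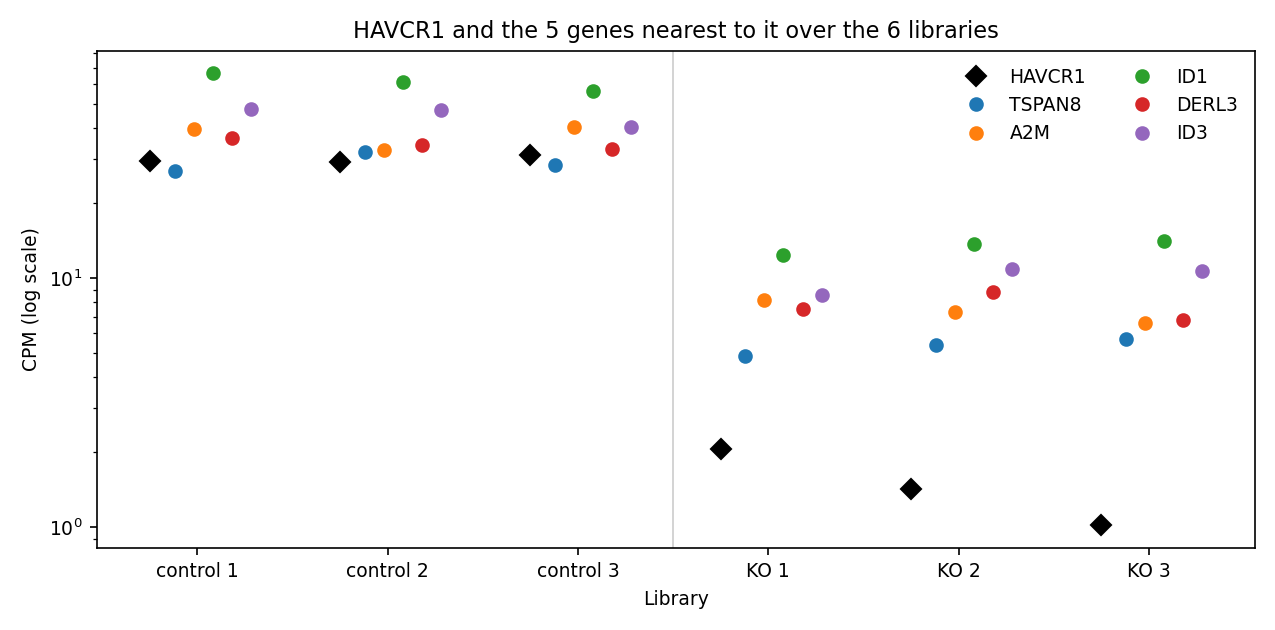
CPM (vertical axis, log scale) of HAVCR1 (black diamonds) and its 5 nearest genes (coloured circles) in each library (horizontal axis). Control values of all 6 genes lie between 26.8 and 66.4 CPM, and in KO HAVCR1 lies below the other 5, at 1.02 to 2.06 CPM.

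The ligands and partners of TIM proteins were then read from the fit over all genes. All gene lists of this report were chosen with earlier results of these data known. Their counts of calls and p-values are therefore a description, and nothing is read from them about a list as a whole. Of 20 tested genes, 4 fell, 2 rose and 14 were not called, with a median log2FC of 0.024 (over all 15647 tested genes 1313 fell and 1184 rose, with a median of -0.00084). CEACAM1, an adhesion molecule and ligand of HAVCR2, fell from 10.2 ± 1.93 to 4.18 ± 0.464 CPM (log2FC -1.29, SE 0.14, edgeR adjusted p 2.76e-08). LGALS9, which encodes galectin-9, fell from 17.0 ± 1.97 to 10.2 ± 1.63 CPM (log2FC -0.71, SE 0.11, adjusted p 1.43e-05). FYN, a Src-family kinase gene, fell by 0.58 on the log2 scale (adjusted p 6.84e-05). MMP14, a membrane metalloprotease, rose from 55.4 ± 5.62 to 114 ± 8.10 CPM (log2FC 1.05, SE 0.080, adjusted p 2.47e-11).

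The 2 remaining calls in this list, named after their values were seen, were both genes that set phosphatidylserine exposure. XKR8, a scramblase gene, had -0.51, and TMEM30A, a flippase subunit gene, had 0.40 on the log2 scale. TMEM30A lost its call without control replicate 1 (0.36) and without KO replicate 3 (0.31).

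Among the other receptors and bridging proteins for phosphatidylserine and the engulfment machinery below them, 4 fell, 5 rose and 11 were not called, of 20 tested, and the median log2FC was -0.092. Over all tested genes 8.39% fell and 7.57% rose. GAS6, which bridges phosphatidylserine to the TAM receptor kinases, rose from 113 ± 7.85 to 189 ± 9.51 CPM (log2FC 0.74, SE 0.072, edgeR adjusted p 3.40e-09). ITGB3, an integrin subunit, rose by 0.89 on the log2 scale (adjusted p 1.31e-06). CD36, a scavenger receptor, fell from 3.90 ± 0.161 to 1.68 ± 0.0651 CPM (log2FC -1.21, SE 0.17, adjusted p 1.58e-06). ELMO1, an engulfment adaptor, had 1 count over the control libraries and 42 over the KO libraries. This is a ratio of 45.2 with a 95% exact interval of 7.68 to 1828 (counting error only). ELMO1 passed the filter on low counts only through its KO libraries, where it was higher, so its p-value is not given. Named after their values were seen, the remaining calls were GULP1 (-0.66), MFGE8 (-0.44) and PROS1 (-0.41), lower, and THBS1 (0.49) and TYRO3 (0.47), higher. PROS1 lost its call without control replicate 3 (-0.36) and without KO replicate 2 (-0.36), and MFGE8 without control replicate 1 (-0.35) and without KO replicate 1 (-0.35).

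Genes linked to kidney tubule injury, as RNA or as protein, were read next. Of 11 tested, 6 fell, 1 rose and 4 were not called, with a median log2FC of -0.48. The shares over all tested genes were 8.39% lower and 7.57% higher. CLU, which encodes the chaperone clusterin, fell from 153 ± 21.1 to 73.2 ± 2.24 CPM (log2FC -1.06, SE 0.082, edgeR adjusted p 2.84e-11). The keratin genes KRT8 (-0.60, adjusted p 3.11e-06) and KRT18 (-0.51, adjusted p 9.27e-06) and the metalloprotease inhibitor gene TIMP2 (-0.48, adjusted p 1.66e-05) fell as well. KRT8 and KRT18 have many processed copies in the genome, with which they may share reads, and both also stand in the urothelial list. Named after their values were seen, CDH6 (-1.38) and VCAM1 (-0.68), both adhesion molecule genes, also fell, and SPP1, which encodes osteopontin, rose by 0.89 on the log2 scale.

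Markers of healthy proximal tubule were mostly at or near 0. Of the 13 that matched, 7 had fewer than 10 counts over the 6 libraries, including 3 with no count in any library, and 5 were tested. Their summed CPM ranged from 10.8 to 11.1 in control and from 11.9 to 14.2 in KO libraries. Of the 5, 1 fell, 1 rose and 3 were not called, with a median log2FC of -0.20 (8.39% of all tested genes fell and 7.57% rose). LRP2, which encodes the endocytic receptor megalin, fell from 5.29 ± 0.397 to 3.49 ± 0.607 CPM (log2FC -0.61, SE 0.15, adjusted p 0.00200 in edgeR). PAX8, a renal and Müllerian transcription factor, rose from 3.92 ± 0.410 to 8.08 ± 0.453 CPM (log2FC 1.04, SE 0.13, adjusted p 2.34e-07).

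IL-6 family signalling through STAT3, a pathway active in injured kidney tubule, was read in the same way. Of 16 tested genes, 4 rose, 1 fell and 11 were not called, with a median log2FC of 0.18 (7.57% of all tested genes rose and 8.39% fell). The cytokine genes moved most. IL11 rose from 4.74 ± 0.279 to 18.9 ± 0.286 CPM (log2FC 1.99, SE 0.11, edgeR adjusted p 1.02e-14). IL6 rose by 0.96 (adjusted p 1.27e-10) and LIF by 0.63 on the log2 scale (adjusted p 4.76e-07). PIAS3, an inhibitor of STAT3, rose by 0.40 (adjusted p 0.000396), a call lost without KO replicate 2 (0.38). SOCS3, a feedback inhibitor named after its value was seen, fell by 0.39 and lost its call without control replicate 1 (-0.38), control replicate 3 (-0.36) or KO replicate 2 (-0.36).

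The complexes of the 3 neighbours were read likewise, beside shares over all tested genes of 8.39% lower and 7.57% higher. Of 9 tested subunits and partners of the WAVE complex besides CYFIP2, 0 were called by edgeR or DESeq2, and 3 had an unadjusted p under 0.05 in edgeR. The log2FC of the 9 ran from -0.25 to 0.20 with a median of -0.075. CYFIP1, also on this list, had no matched identifier and was not read. Of the 30 other Mediator subunits, all tested, MED30 fell (-0.62, SE 0.096, adjusted p 9.07e-06 in edgeR) and MED31, like MED7 a subunit of the middle module, rose (0.45, SE 0.083, adjusted p 0.000106), and 28 were not called (median 0.051). The other members of the dystrophin-glycoprotein complex were expressed in part, with 12 of 17 tested. DMD, the dystrophin gene, fell from 7.87 ± 1.45 to 2.20 ± 0.229 CPM (log2FC -1.85, SE 0.16, edgeR adjusted p 2.42e-10). DTNA, which encodes dystrobrevin alpha, rose by 0.43 on the log2 scale (adjusted p 0.00174), and 10 were not called (median -0.047).

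The 2 marker lists stand beside shares over all tested genes of 8.39% lower and 7.57% higher. Of 6 tested immune markers, CSF1R (log2FC 2.40, SE 0.17, adjusted p 4.01e-12 in edgeR) and CD14, a co-receptor for lipopolysaccharide (0.62, adjusted p 0.00129), rose, and the list median was 0.30. CD8A, a T cell co-receptor gene, fell by 1.27 on the log2 scale, from 15 to 20 counts in control to 6 to 7 in KO libraries. It passed the filter on low counts only through its control libraries, where it was higher, so its p-value is not given. CD8A lost its call without control replicate 3 (log2FC -1.16) and with DESeq2 (-1.28). Of 8 tested urothelial markers 6 fell and 0 rose, with the smallest p-values for KRT19 (-0.70, SE 0.081, adjusted p 8.06e-08), KRT8, KRT18 and PPARG (-0.45, adjusted p 1.04e-05), with a median of -0.48. Named after their values were seen, EPCAM (-0.86) and GATA3 (-0.42) fell too, and GATA3 lost its call without KO replicate 1 (-0.37).

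**Figure D4:**
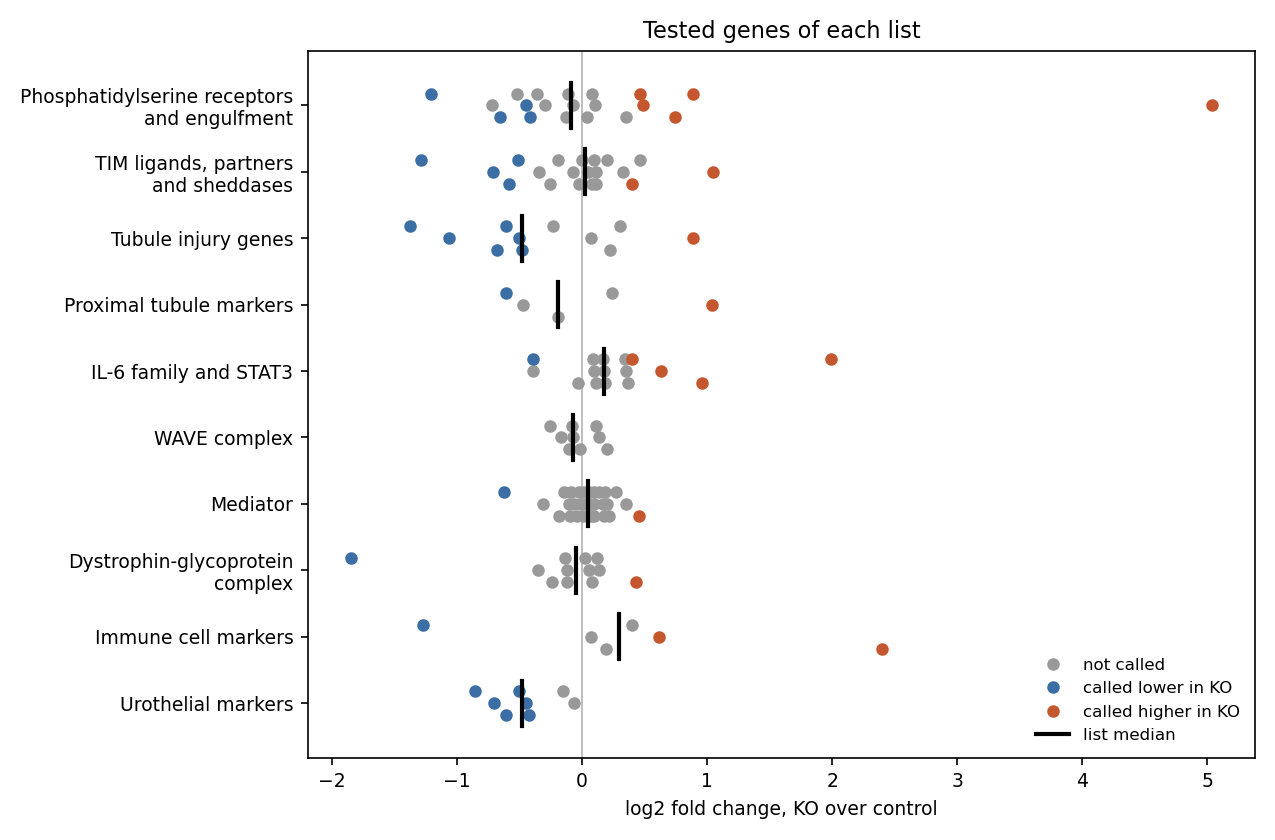
Log2 fold change of KO over control (horizontal axis) for each tested gene of the 10 lists (rows), with genes called lower in blue, called higher in orange, not called in grey and the list median as a black bar. The tubule injury and urothelial medians lie at -0.48, the WAVE complex stays between -0.25 and 0.20, and the orange point near 5 is ELMO1, whose fitted value rests on 1 control read.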

How the data were processed

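RNA-seq libraries of J82 cells, 3 control and 3 FOXC1 KO, were grouped by sample title. The authors aligned paired 75 bp reads to hg19 with STAR and assigned them to GENCODE version 19 genes with featureCounts, and the table that the authors deposited gives the raw counts. The authors' strand setting, their treatment of reads that map to several places and the tool versions were not given in the sources used here. The table has 57820 rows, all counted in the library totals, and 55538 identifiers (96.1%) matched a GENCODE version 44 annotation on GRCh37, the assembly of hg19.

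The filter filterByExpr of edgeR 4.0.16 (R 4.3.3) and TMM scaling preceded edgeR's robust quasi-likelihood F test, whose only term was the group. This left 15647 tested genes. A gene was called at a Benjamini-Hochberg adjusted p under 0.05 over all tested genes and a fold change over 1.3. SEs were derived from the F statistic. CPM used TMM-scaled library sizes, and RPKM divided CPM by union exon length in kb. These lengths were those of the version 44 annotation, not of the version 19 genes that were counted. Intervals on counts are exact 95% intervals and, like floors of 3 counts, cover counting error only. On simulated counts with known changes the scripts were tested first.

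The 6 member genes and the lists were chosen with earlier results of these data known. Named genes are the members, FOXC1, tested genes within 1 Mb of HAVCR1, up to 4 called genes of each list by smallest p, and the 5 genes nearest to HAVCR1 in mean-centred log2(CPM + 0.5). Among list symbols without a matched identifier, CD24 and CYFIP1 were not analysed here, and some results are not reported here. DESeq2 1.42.0, other scalings, other filters, a replicate block and leaving out each library were the alternatives.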

Additional observations from a re-analysis of the deposited data

How the results depend on the processing

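Over the alternatives, HAVCR1 kept a log2 fold change between -4.61 and -4.14, CYFIP2 between -1.15 and -0.83 and MED7 between 0.18 and 0.32 when each library was left out in turn. HAVCR2 ranged from -2.72 to -1.03 across those fits, and it did not meet the criteria for a call in 4 of 11 alternatives (DESeq2, and without control replicate 1, KO replicate 2 or KO replicate 3). It was not tested with a mean of at least 50 counts. In the 1 Mb window on 5q33, the count of genes called higher ranged from 0 to 1 across those fits (ADAM19 in each case) and was 1 in a window of 5 Mb. The median log2 fold change of that window ranged from 0.0096 to 0.11 across the same fits. Without a filter on low counts it was -0.082, from added genes of few counts, and -0.080 in a window of 0.5 Mb, which holds only NIPAL4. All other settings left the 1 Mb window without a called gene. Over all tested genes 1201 to 1408 were lower and 1124 to 1231 higher when 1 library was left out. Of the 40 called genes of the lists, 35 to 40 were called again in the same direction in each alternative, and 0 were called in the opposite direction. Counts within some short lists moved by over 1.5 times. Mediator went from 1 to 2 lower without KO replicate 3 and from 1 to 2 higher without control replicate 3. The STAT3 list went from 1 lower to 2 with no filter and to 0 without control replicate 1, control replicate 3 or KO replicate 2. The TIM partner list went from 2 higher to 1 without control replicate 1 or KO replicate 3. The dystrophin list went from 1 lower to 2 without control replicate 2, control replicate 3 or KO replicate 2. Immune markers went from 1 lower to 0 with DESeq2, with the 50-count filter and without control replicate 3. With the 50-count filter the tubule injury list went from 1 higher to 0, and with no filter the urothelial list from 0 higher to 1. The median over all tested genes stayed between -0.0090 and 0.0035 (log2) in all alternatives.

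Replicate numbers were no sign of pairing. The deviations of same-numbered libraries from their group means correlated at -0.040, -0.13 and 0.073, and 0 of 6 libraries correlated best with their own number. With the number as a block HAVCR1 had -4.35, HAVCR2 -1.62, CYFIP2 -1.02 and MED7 0.24. Depth limited HAVCR2, TIMD4 and SGCD, where a difference at or under the floor of 3 counts was not detectable.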
